A study of Mus musculus with 8 samples.

Results

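The genes described here encode carriers that move inorganic ions, phosphate and metals across membranes: the solute carrier families Slc4, Slc8, Slc9, Slc12, Slc20, Slc24, Slc26, Slc30, Slc34, Slc39, Slc40 and Slc41. They were taken by symbol, as genes named Slc, 1 of these 12 family numbers, the letter a and a further number, and 84 of the 35852 genes in the count table qualified. Of the 84, 80 are carriers by their symbol and 4 are not: Slc9a3r1 and Slc9a3r2 encode the scaffold proteins NHERF1 and NHERF2, Slc4a1ap encodes kanadaptin, an adaptor protein, and Slc39a1-ps is a pseudogene. RNA was sequenced from bEnd3, a line of mouse brain endothelial cells that is, as background, immortalised with a viral oncogene, and a single line stands in for the endothelium of the brain. Corticosterone, the main glucocorticoid of mice, at 5 µM over 24 h, was the treatment of 4 samples, and medium is named in the titles and treatment field of 4 others. No vehicle is named for the medium samples, and their treatment protocol also names corticosterone. Both groups were grown in DMEM with fetal calf serum. Whether replicates were separate cultures is not stated, and the p-values rest on the spread among the 8 samples, which may be technical.

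Carriers of these families work on gradients that pumps set up. The sodium-phosphate cotransporters of Slc20 (PiT1 and PiT2) bring phosphate into most cells, whereas those of Slc34 serve kidney and gut. Slc12 carriers set cell chloride and volume, the sodium-dependent NKCC1 bringing chloride in and the potassium-chloride cotransporters letting it out, and Slc4 and Slc9 carriers set cell pH. For zinc the ZnT proteins (Slc30) lower the cytosolic level and the ZIP proteins (Slc39) raise it. At the blood-brain barrier, NKCC1 and sodium-hydrogen exchange of the endothelium are known for their part in sodium and fluid entry into the brain, and mutations of PiT2 and of the phosphate exporter XPR1 are known in humans with calcified brain vessels.

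The windows before the starts of Slc20a1, the carrier with the largest change among those called, and of Slc30a1, the zinc exporter that is a textbook target of the metal-sensing factor MTF1, are shown because both genes rose with corticosterone. Each run is 250 bases of GRCm38.p6 that end at the annotated start, from RefSeq. Capitals mark the core of the metal response element (TGCACNC or TGCGCNC, either strand) or a single arm of the glucocorticoid receptor's site (AGAACA, either strand), and the capitals are the letters on the printed strand. The windows of Slc9a3r2 and Slc8a1, which rose as well, hold neither and are not printed.
Slc20a1, first start, chr2:129198523-129198772, plus strand: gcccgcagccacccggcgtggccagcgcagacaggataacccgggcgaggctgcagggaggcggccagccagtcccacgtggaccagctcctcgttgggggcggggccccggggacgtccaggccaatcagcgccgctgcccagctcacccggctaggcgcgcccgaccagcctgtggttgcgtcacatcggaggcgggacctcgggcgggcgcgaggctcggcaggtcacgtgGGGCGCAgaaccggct
Slc20a1, second start, chr2:129206846-129207095, plus strand: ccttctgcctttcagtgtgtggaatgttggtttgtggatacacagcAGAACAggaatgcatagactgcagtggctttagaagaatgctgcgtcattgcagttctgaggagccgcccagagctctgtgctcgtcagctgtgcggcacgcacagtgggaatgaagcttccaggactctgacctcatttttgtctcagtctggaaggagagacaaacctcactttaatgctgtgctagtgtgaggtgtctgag
Slc30a1, chr1:191906531-191906780, plus strand: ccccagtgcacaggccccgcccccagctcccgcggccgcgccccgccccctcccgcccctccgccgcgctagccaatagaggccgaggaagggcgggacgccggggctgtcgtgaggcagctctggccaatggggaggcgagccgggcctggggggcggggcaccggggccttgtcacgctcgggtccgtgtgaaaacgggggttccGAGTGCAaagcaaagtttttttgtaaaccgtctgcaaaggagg

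RefSeq windows of 250 bases before to 50 after a start were found for 65 of the 84 genes, in 82 windows. The full palindrome of the receptor, AGAACA and TGTTCT set 3 bases apart, was in 0 of the 82 windows and in 0.00913% of the 32851 windows of all genes. Its single arm was in 10 of the 82, against 19.0% of all windows, and among the genes that rose it was in the second window of Slc20a1 and in no window of the 7 others matched. The metal response core stood in 33 of 82 windows, against 25.7% of all. Counted by gene, it was in 31 of the 65, against 28.2% of all genes. It was held by 5 of the 8 matched genes that rose, 6 of the 8 that fell and 9 of the 24 not called. A match of letters is no proof of a site, and a window without them says nothing of sites elsewhere.

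Libraries held 19.7 to 46.2 M estimated counts (M is 1e+06), with means of 30.2 ± 2.87 M in corticosterone libraries and 30.4 ± 11.2 M in medium libraries (SD, n = 4 each). The difference of -0.168 M gave p = 0.971 in an exact permutation test, two-sided, and no p under 0.0286 can be reached with 4 against 4. All 8 endothelial markers examined were at 1 CPM or more (CPM are counts per 1e+06 of the scaled library), summing to 7605 to 7847 CPM in corticosterone libraries and 7101 to 7588 CPM in medium libraries. Of 5 fibroblast markers, Col1a1 and Pdgfra reached 1 CPM, and the list summed to 5.74 to 6.69 CPM with corticosterone against 19.9 to 21.9 CPM in medium. This list moves with the groups, and whether that bears on the comparisons below was not tested. Markers of pericytes and smooth muscle, neural cells, leukocytes and epithelium stayed under 1 CPM, with Aqp4 at 0. In bulk RNA, fewer cells of a type and less RNA per cell cannot be told apart. Corticosterone replicates 1 and 2 stand apart in how their reads were assigned to transcripts: their deposited effective lengths equal the transcript length plus 1, whereas those of the other 6 libraries are 340 to 360 nt shorter than the transcript. The counts of these replicates also differed, from each other and from the rest of their group. The chi-square per degree of freedom was 95.5 between corticosterone replicates 1 and 2. It was 44.1 to 62.0 between either of them and corticosterone replicates 3 or 4. Every other pair of libraries within a group lay between 2.16 and 4.75. How many of the described genes rose and fell was also counted without corticosterone replicates 1 and 2.

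After a filter on low counts, 52 of the 84 genes were tested, 49 of them carriers. Of the 52, 9 rose and 13 fell with corticosterone at an adjusted p under 0.05 (edgeR quasi-likelihood test, Benjamini-Hochberg over 13272 genes), and 30 were not called. That is 42.3% called, where 40.1% of all genes tested were called, 19.5% higher and 20.6% lower, so the share of changed genes is near that of the whole table. Counts of called genes for a family or list below stand beside these shares, and no family or list was tested as a set. The groups did not overlap in 23 of the 52, against 39.9% of all genes. The median log2 fold change (corticosterone over medium) was -0.03 over the 52 and -0.005 over all genes, and the median size was 0.18 over the 52 and 0.14 over all genes. Sizes were small for most of the 22 called, and 7 of them reached 0.5 on the log2 scale, against 1277 of the 5327 called over all genes. The median size of the called genes was 0.23 among the 22 and 0.25 over all genes. Among the 49 carriers alone 7 rose and 12 fell. Without corticosterone replicates 1 and 2, 8 of the 52 rose and 13 fell.

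**Figure D1:**
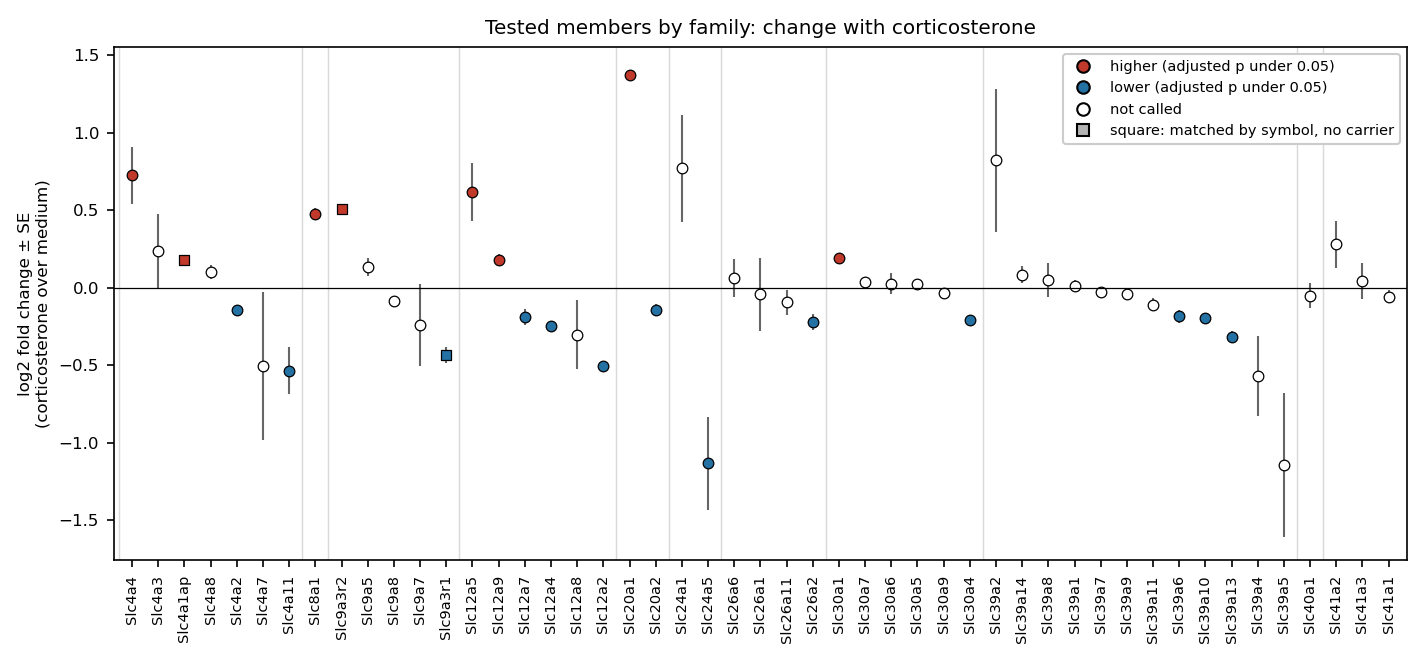
Log2 fold change (corticosterone over medium) on the y axis with its SE as a bar, for 49 of the 52 tested genes on the x axis, ordered within each family from the highest to the lowest; filled red points were called higher, filled blue points lower, open points not called, and squares are the genes that encode no carrier. Slc20a1 stands highest at 1.37, the Slc9 carriers drawn lie at open points, and the 3 called Slc39 genes are lower.

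Phosphate entry gave the largest change. Slc20a1 (PiT1, chromosome 2, 129198764 to 129211616, plus strand), whose promoter windows are printed above, had 340.4, 319, 315 and 333 CPM in corticosterone replicates 1 to 4, against 128, 125, 123 and 128 CPM in medium replicates 1 to 4. Every corticosterone library lay far above every medium library, and the spread within each group was small beside the gap. Its means of 327 ± 12.02 CPM with corticosterone and 126 ± 2.33 CPM in medium (SD, n = 4 each) differ by 2.59-fold, which is 1.37 ± 0.0297 (SE) on the log2 scale at an adjusted p of 4.28e-12. Slc20a2 (PiT2, the other phosphate carrier of the family) had 41.3, 37.6, 39.7 and 39.4 CPM with corticosterone, against 43.9, 45.6, 42.4 and 42.5 CPM in medium. The groups do not overlap, but corticosterone replicate 1 lies close to the lowest medium library, and the fall is slight, 0.907-fold (log2 fold change -0.14 ± 0.0385 SE, adjusted p = 0.0108). The pair thus moved in opposite directions.

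The gene of the Slc34 family with the most counts in any library had 1 count, so phosphate cotransport of the kidney and gut type was at or under the detection limit here. Slc34a1 and Slc34a2 had 0 counts with corticosterone and 1 count each in medium over all 4 libraries, and Slc34a3 had 0 in all 8. Among 12 genes of phosphate and sulfate handling outside the carriers, 10 were tested, of which 1 rose and 2 fell. Xpr1, the exporter of phosphate, rose to 87.6 ± 3.48 CPM with corticosterone, against 77.5 ± 1.64 CPM in medium (1.13-fold, adjusted p = 0.000575). Fgfr1, a receptor through which FGF23 acts on phosphate in the kidney, fell to 78.3 ± 2.39 CPM with corticosterone, against 97.6 ± 3.00 CPM in medium (0.802-fold, adjusted p = 3.36e-06). Papss1, which makes the activated sulfate used by sulfotransferases, fell to 77.6 ± 2.10 CPM with corticosterone, against 86.8 ± 1.249 CPM in medium (0.894-fold, adjusted p = 0.000287).

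**Figure D2:**
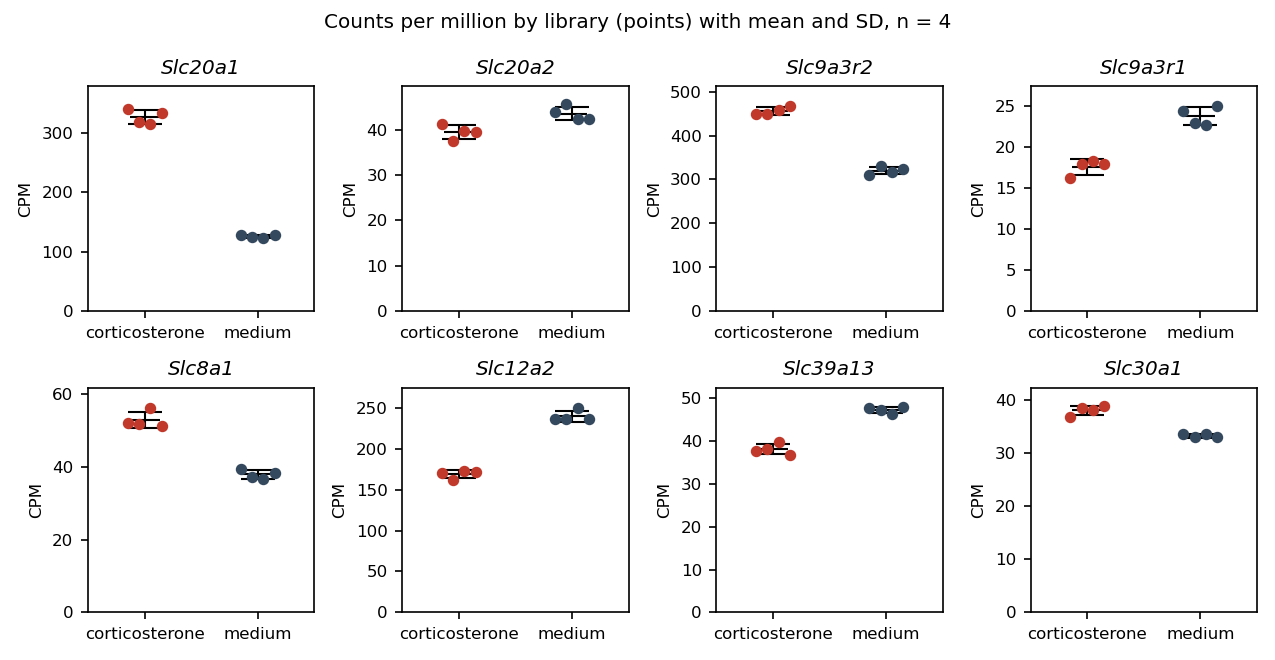
CPM (y axis, from 0) of 8 genes by library, corticosterone left and medium right; each point is a library and the bars are the mean and SD, n = 4. Slc20a1, Slc9a3r2, Slc8a1 and Slc30a1 lie higher with corticosterone, Slc20a2, Slc9a3r1, Slc12a2 and Slc39a13 lower, and no point of one group reaches the other group.

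The scaffold proteins NHERF1 and NHERF2, which hold carriers such as the sodium-hydrogen exchanger NHE3 at the membrane through PDZ domains, moved in opposite directions. Slc9a3r2 (NHERF2, chromosome 17, 24639286 to 24650327, minus strand) had 449, 450.2, 458 and 467 CPM with corticosterone, against 311, 329.6, 317 and 323 CPM in medium. The corticosterone libraries lie together well above the medium libraries, a rise of 1.42-fold (log2 fold change 0.51 ± 0.0250 SE, adjusted p = 6.81e-09). Slc9a3r1 (NHERF1) fell to 16.1, 17.9, 18.3 and 17.9 CPM with corticosterone, against 24.3, 22.9, 22.7 and 24.9 CPM in medium. All 4 corticosterone libraries are under all 4 medium libraries (0.740-fold, log2 fold change -0.43 ± 0.0522 SE, adjusted p = 2.60e-05). Slc9a3, the gene for NHE3 itself, had 1 count with corticosterone and 2 counts in medium.

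Of the 5 tested Slc9 carriers 0 were called by edgeR and 0 by DESeq2, and 2, Slc9a5 and Slc9a8, had an unadjusted p under 0.05. Slc9a8 (NHE8, of the Golgi and endosomes) had 49.3, 47.7, 51.2 and 50.7 CPM with corticosterone, against 53.8, 53.5, 51.5 and 52.1 CPM in medium. Its groups do not overlap, but corticosterone replicate 3 and medium replicate 3 nearly meet, and the difference missed the threshold (0.944-fold, adjusted p = 0.0542). For Slc9a5 (NHE5) the means were 32.5 ± 0.777 CPM with corticosterone and 29.6 ± 2.56 CPM in medium (adjusted p = 0.0756), and without medium replicate 1 the adjusted p was 0.00331. Slc9a7, an exchanger of the trans-Golgi, had an adjusted p of 0.515.

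Slc4 carriers move bicarbonate, and 3 of the 6 tested were called. Slc4a4 (NBCe1, which brings in sodium with bicarbonate) had 2.03, 1.92, 2.21 and 2.42 CPM with corticosterone, against 1.63, 1.33, 1.21 and 0.975 CPM in medium. The level is low and the groups do not overlap, a rise of 1.65-fold (log2 fold change 0.73 ± 0.184 SE, adjusted p = 0.00715). In levels per length, described below, they do overlap. Corticosterone replicates 3 and 4 were at 0.626 and 0.507, medium replicate 2 at 1.27 and the other medium replicates at 0.192 to 0.345. Slc4a2 (AE2, the anion exchanger that lets bicarbonate out for chloride) fell slightly, to 106, 109, 105 and 106 CPM with corticosterone, against 121, 120.1, 114 and 114 CPM in medium. Although small, the step of 0.907-fold separates the groups (log2 fold change -0.14 ± 0.0270 SE, adjusted p = 0.00112). Slc4a2 shares 12.8% of its 31-mers (stretches of 31 bases) with Fastk, so some reads of these genes cannot be told apart.

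Slc4a11, a carrier known for moving protons and ammonia in the corneal endothelium, fell to 1.963, 2.25, 1.82 and 1.95 CPM with corticosterone, against 2.27, 3.24, 2.91 and 3.17 CPM in medium. Medium replicate 1 is close to corticosterone replicate 2, the others are apart (0.691-fold, adjusted p = 0.0136). Slc4a8 (NDCBE) had no overlap of the groups, with means of 17.5 ± 0.319 CPM with corticosterone and 16.3 ± 0.704 CPM in medium, but missed the threshold (adjusted p = 0.0998), and so did Slc4a3 (AE3, adjusted p = 0.465). The adaptor gene Slc4a1ap rose to 63.6 ± 2.73 CPM with corticosterone, against 56.1 ± 1.42 CPM in medium (1.13-fold, adjusted p = 0.00111).

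For Slc4a7 (NBCn1, a sodium-bicarbonate cotransporter) and Slc39a3 (the zinc importer ZIP3), the deposited gene table does not hold most of the reads. It leaves out transcripts whose identifier carries another version number than the annotation, and over the 8 libraries these take most of the counts of both genes. The table holds 16.4% of the transcript counts of Slc4a7, between 5.30% and 23.6% by library, and 12.7% of those of Slc39a3, between 0.206% and 79.5%. In the table Slc4a7 had 1.42, 4.58, 5.83 and 4.62 CPM with corticosterone, against 8.52, 6.77, 3.82 and 4.01 CPM in medium, with overlapping groups (adjusted p = 0.463).

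With all transcripts of the gene summed, an alternative chosen after the data were seen, Slc4a7 had 26.9, 26.04, 29.4 and 29.6 CPM with corticosterone, against 36.1, 34.4, 35.7 and 35.2 CPM in medium. The groups then separate cleanly, and the gene is lower with corticosterone (0.792-fold, log2 fold change -0.34 ± 0.0476 SE, adjusted p = 9.72e-05). Most of these Slc4a7 counts are on transcripts annotated as targets of nonsense-mediated decay. The largest such transcript took 51.9% to 77.1% of them by library, and another took 6.07% to 16.4%. The fall is thus one of the summed RNA, and whether the coding transcripts fell was not tested. Slc39a3 had 31.1, 33.1, 29.5 and 30.7 CPM with corticosterone, against 23.9, 22.6, 23.9 and 22.9 CPM in medium. All 4 corticosterone libraries are above the medium libraries (1.33-fold, log2 fold change 0.42 ± 0.0449 SE, adjusted p = 9.63e-06), although in the deposited table this gene did not pass the filter and held 24.8 CPM in corticosterone replicate 1 and 1.07 CPM or less in the other libraries. Slc26a10, the other gene with such a transcript, stayed too low to be tested. The 22 calls above are from the table as deposited.

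**Figure D3:**
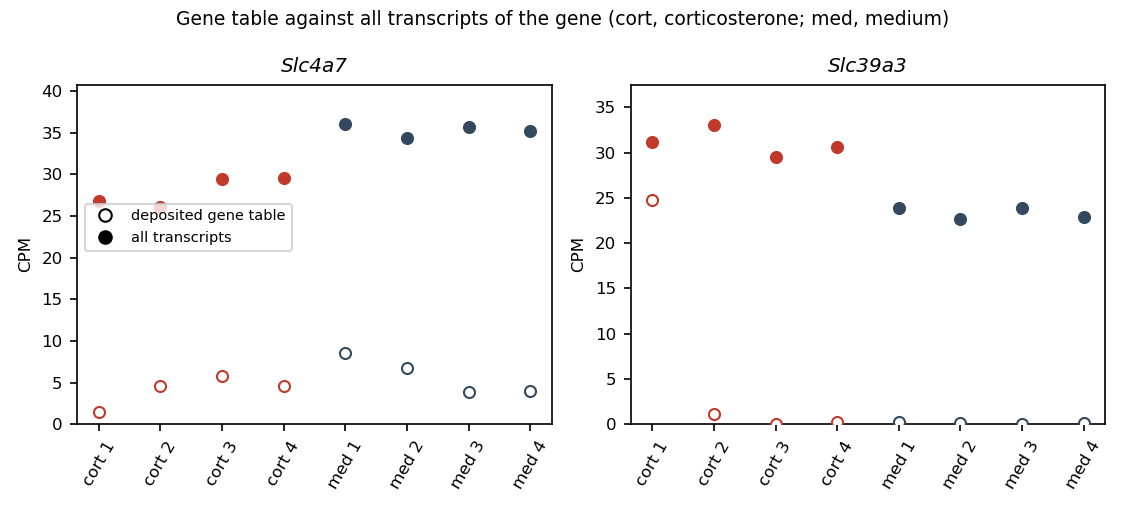
CPM (y axis, from 0) of Slc4a7 and Slc39a3 in each library (x axis; cort is corticosterone, med is medium), as the deposited gene table gives it (open points) and with all transcripts of the gene (filled points). The filled points separate the groups in both genes, and the open points of Slc39a3 are near 0 in all libraries but corticosterone replicate 1.

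Of the genes that work with pH, 19 were listed and 13 tested, and 3 rose and 5 fell (61.5% called, all tested genes 40.1%). Car7 and Car5b encode carbonic anhydrases of the cytosol and the mitochondrion. Car7 rose to 28.9 ± 3.59 CPM with corticosterone, against 10.1 ± 0.929 CPM in medium (2.87-fold, adjusted p = 6.48e-07). Car5b rose to 35.7 ± 1.34 CPM with corticosterone, against 21.3 ± 0.536 CPM in medium (1.67-fold, adjusted p = 2.25e-08). Chp2, a calcineurin B-like cofactor of sodium-hydrogen exchangers, fell to 2.22 ± 0.496 CPM with corticosterone, against 9.52 ± 1.30 CPM in medium (0.232-fold, adjusted p = 6.90e-07).

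Sodium-calcium exchange was represented by Slc8a1. This gene (NCX1, which lets calcium out for sodium; chromosome 17, 81373105 to 81738377, minus strand) had 52.1, 51.8, 56.2 and 51.3 CPM with corticosterone, against 39.5, 37.3, 36.7 and 38.3 CPM in medium. Every corticosterone library is above every medium library, and replicate 3 is the highest (1.39-fold, log2 fold change 0.48 ± 0.0382 SE, adjusted p = 6.70e-07). Its relatives Slc8a2 and Slc8a3 had 3 and 24 counts over the 4 corticosterone libraries, against 2 and 30 counts over the 4 medium libraries, and were not tested.

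The sodium-calcium-potassium exchangers of Slc24 were at the edge of detection. Slc24a5 (NCKX5, known from melanosomes) had 0.380, 0.332, 0.243 and 0.361 CPM with corticosterone, against 0.636, 0.957, 0.804 and 0.523 CPM in medium. The groups do not overlap (0.457-fold, log2 fold change -1.13 ± 0.300 SE, adjusted p = 0.00927), but these are 39 counts in all with corticosterone and 87 in medium, and the gene shares 37.2% of its 31-mers with its neighbour Myef2. Slc24a1, of photoreceptors, had 0.543 ± 0.153 CPM with corticosterone and 0.304 ± 0.0967 CPM in medium (adjusted p = 0.0952). Slc24a2, Slc24a3 and Slc24a4 had 4, 4 and 39 counts over all 8 libraries.

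Beside the exchangers, 10 of 17 listed genes of sodium and calcium pumps were tested, and 7 rose and 1 fell. Calls took 80% of these tested genes, where 40.1% of all genes tested were called. Fxyd5, a regulator of the sodium pump, rose to 137 ± 1.65 CPM with corticosterone, against 108 ± 3.57 CPM in medium (1.27-fold, adjusted p = 6.48e-07). Atp2a2 (SERCA2, the calcium pump of the endoplasmic reticulum) rose to 622 ± 8.03 CPM with corticosterone, against 538 ± 9.05 CPM in medium (1.16-fold, adjusted p = 7.21e-06). Atp2b4, a calcium pump of the plasma membrane, fell to 4.45 ± 0.343 CPM with corticosterone, against 7.68 ± 0.459 CPM in medium (0.578-fold, adjusted p = 1.09e-05).

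Of the 7 cation-chloride cotransporters tested, 3 rose and 3 fell. Slc12a2 (NKCC1, chromosome 18, 57878678 to 57946821, plus strand), which brings sodium, potassium and chloride into the cell, had 170.1, 161, 172 and 171 CPM with corticosterone, against 236, 236, 249.8 and 237 CPM in medium. The highest corticosterone library is far under the lowest medium library (0.705-fold, log2 fold change -0.50 ± 0.0292 SE, adjusted p = 3.16e-08). Slc12a4 (KCC1, which lets potassium and chloride out) had 96.7, 94.3, 101 and 96.8 CPM with corticosterone, against 121, 111, 112 and 116 CPM in medium. The groups do not overlap, with corticosterone replicate 3 nearest to medium (0.843-fold, log2 fold change -0.25 ± 0.0310 SE, adjusted p = 3.91e-05).

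Slc12a7 (KCC4) had 108, 105, 110.3 and 104 CPM with corticosterone, against 131, 126, 109 and 119 CPM in medium. The groups overlap, since medium replicate 3 lies among the corticosterone libraries (0.878-fold, adjusted p = 0.0121), and without corticosterone replicates 1 and 2 the adjusted p was 0.0807. Slc12a9, a relative that binds other cotransporters, rose to 37.0 ± 1.36 CPM with corticosterone, against 32.6 ± 0.887 CPM in medium (1.13-fold, adjusted p = 0.00238).

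Slc12a5 (KCC2, best known from neurons) had 1.49, 1.55, 1.46 and 1.23 CPM with corticosterone, against 0.975, 0.920, 0.754 and 1.05 CPM in medium. The gene is scarce, the groups do not overlap, and the rise of 1.54-fold (log2 fold change 0.62 ± 0.186 SE, adjusted p = 0.0180) lost its call without corticosterone replicates 1 and 2 (adjusted p = 0.112). With the replicate number as a block, the adjusted p was 0.0549. In levels per length, described below, the groups overlap. Corticosterone replicates 3 and 4 were at 0.656 and 0.407, medium replicate 1 at 0.563 and the other medium replicates at 0.199 to 0.380. Slc12a8 was not called (adjusted p = 0.312), and Slc12a1 and Slc12a3, the cotransporters of the kidney tubule, had 1 and 40 counts over the 8 libraries.

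Regulators of these cotransporters, both kinases and proteins that bind kinases or mark proteins for breakdown, were listed as 14 genes, of which 12 were tested, and 4 rose and 2 fell. Those that fell, Nedd4l and Klhl3 (the second named after its values were seen), encode parts of ubiquitin ligases and are not kinases. The list does not divide by kind, since the 6 not called include both kinases and parts of ubiquitin ligases. Those that rose are not all kinases. Sgk1, the serum- and glucocorticoid-regulated kinase, had 436, 442, 460.1 and 429 CPM with corticosterone, against 191, 189, 185 and 188 CPM in medium. All corticosterone libraries lie far above all medium libraries (2.35-fold, adjusted p = 4.02e-12). Wnk1, the chloride-sensing kinase that turns on NKCC1 through SPAK, rose to 1104 ± 20.6 CPM with corticosterone, against 764 ± 4.89 CPM in medium (1.44-fold, adjusted p = 8.51e-10). Nedd4l, a ubiquitin ligase that Sgk1 holds back, fell to 31.002 ± 0.466 CPM with corticosterone, against 53.2 ± 1.91 CPM in medium (0.583-fold, adjusted p = 2.55e-09).

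Among the anion carriers of Slc26, 4 of 11 were tested and 1 was called. Slc26a2, a sulfate carrier needed for sulfated matrix, fell to 22.4, 23.6, 21.6 and 20.6 CPM with corticosterone, against 25.3, 24.8, 27.7 and 24.9 CPM in medium. The groups come close without overlap (0.859-fold, log2 fold change -0.22 ± 0.0533 SE, adjusted p = 0.00543). Slc26a6, an exchanger of chloride with bicarbonate or oxalate, had 3.93, 3.69, 4.10 and 3.47 CPM with corticosterone, against 3.82, 4.05, 2.91 and 3.69 CPM in medium, with the groups mixed (adjusted p = 0.712). Slc26a1 and Slc26a11, which carry sulfate, had adjusted p of 0.912 and 0.407.

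Zinc carriers are the most numerous here, with 10 ZnT and 14 ZIP genes, and those called moved by less than 0.5 on the log2 scale. Slc30a1 (ZnT1, the zinc exporter of the plasma membrane, whose promoter window is printed above) had 36.8, 38.4, 38.0 and 38.9 CPM with corticosterone, against 33.6, 32.9, 33.6 and 33.0 CPM in medium. The rise is small and clear of the spread (1.14-fold, log2 fold change 0.19 ± 0.0333 SE, adjusted p = 0.000518). Slc30a4 (ZnT4, which fills endosomes and other vesicles with zinc) fell to 107 ± 5.53 CPM with corticosterone, against 124 ± 2.78 CPM in medium (0.865-fold, adjusted p = 0.000411). Slc30a9 (ZnT9, of mitochondria), highest of its family per length, had 102, 103, 106 and 96.0 CPM with corticosterone, against 103, 106, 104 and 104 CPM in medium, with overlapping groups (adjusted p = 0.434). The carriers of the early secretory pathway Slc30a5, Slc30a6 and Slc30a7 had log2 fold changes between 0.02 and 0.04 and adjusted p of 0.473 to 0.785.

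Of the 12 ZIP genes tested as deposited, 3 fell and 0 rose, by edgeR and by DESeq2 alike, with 6 lower and 0 higher at an unadjusted p under 0.05. The 25% called by edgeR compares with 40.1% of all genes tested. Slc39a13 (ZIP13, which lets zinc out of the Golgi and vesicles and is known from connective tissue) had 37.8, 38.2, 39.7 and 36.8 CPM with corticosterone, against 47.9, 47.3, 46.4 and 47.9 CPM in medium. The groups are well apart (0.805-fold, log2 fold change -0.31 ± 0.0330 SE, adjusted p = 8.10e-06). Slc39a10 and Slc39a6 (ZIP10 and ZIP6), a pair known to work together at the plasma membrane, both fell. Slc39a10 had 84.7 ± 2.19 CPM with corticosterone and 96.9 ± 2.05 CPM in medium (0.874-fold, adjusted p = 8.55e-05). Slc39a6 had 24.5 ± 0.927 CPM with corticosterone and 27.8 ± 0.604 CPM in medium (0.881-fold, adjusted p = 0.00333).

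The ZIP gene highest per length, Slc39a7 (ZIP7, which lets zinc out of the endoplasmic reticulum), had 146, 147, 138 and 142 CPM with corticosterone, against 142, 144, 146 and 150.5 CPM in medium, and the groups overlap (adjusted p = 0.5001). Slc39a14 (ZIP14, which also takes up iron and manganese) had 31.9, 29.4, 32.6 and 31.8 CPM with corticosterone, against 30.7, 28.2, 27.5 and 31.9 CPM in medium (adjusted p = 0.239). Slc39a8 (ZIP8, its close relative) had 2.98, 2.92, 2.88 and 2.82 CPM with corticosterone, against 2.95, 2.58, 2.86 and 2.79 CPM in medium (adjusted p = 0.786). Neither of these metal importers separated the groups. Slc39a11 had 44.0 ± 1.93 CPM with corticosterone and 47.4 ± 1.998 CPM in medium and came near the threshold (adjusted p = 0.0566). Slc39a1 shares 26.4% of its 31-mers with the pseudogene Slc39a1-ps, and had 150.2 ± 9.63 CPM with corticosterone and 149 ± 1.90 CPM in medium (adjusted p = 0.848). The other members of the family that were tested, Slc39a2, Slc39a4, Slc39a5 and Slc39a9, were not called, and the first 3 of these averaged under 1 CPM in both groups.

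Zinc and copper genes outside the carriers were listed as 16, of which 12 were tested, and 7 rose and 2 fell. Among the tested genes of this list 75% were called, against 40.1% of all genes tested. The metallothionein Mt2, which buffers zinc, had 3.96, 3.51, 3.94 and 3.79 CPM with corticosterone, against 0.0212 CPM in medium replicate 1 and 0 in medium replicates 2 to 4. Atox1, a copper chaperone, rose to 65.2 ± 2.36 CPM with corticosterone, against 45.5 ± 2.40 CPM in medium (1.43-fold, adjusted p = 5.55e-07). Steap2, a metalloreductase, rose to 52.0 ± 1.40 CPM with corticosterone, against 40.4 ± 1.35 CPM in medium (1.29-fold, adjusted p = 3.20e-06).

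Slc40a1 (ferroportin, the cell's iron exporter) had 11.2, 14.04, 12.6 and 11.2 CPM with corticosterone, against 11.996, 12.4, 14.2 and 12.2 CPM in medium. The groups overlap, with a log2 fold change of -0.05 (approximate 95% interval -0.21 to 0.11, adjusted p = 0.676). Around it, 14 of 19 listed iron genes were tested, and 5 rose and 5 fell. Fth1, the ferritin heavy chain that stores iron, rose to 1444 ± 48.8 CPM with corticosterone, against 1013 ± 21.3 CPM in medium (1.42-fold, adjusted p = 1.35e-08). Hmox1, which frees iron from heme, fell to 249.2 ± 7.24 CPM with corticosterone, against 303 ± 8.78 CPM in medium (0.823-fold, adjusted p = 6.86e-06). Hfe, the iron regulator mutated in human haemochromatosis, fell to 11.6 ± 1.05 CPM with corticosterone, against 15.3 ± 1.07 CPM in medium (0.760-fold, adjusted p = 0.000803).

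Of the 3 magnesium carriers of Slc41, 0 were called by edgeR, 0 by DESeq2 and 0 at an unadjusted p under 0.05. Slc41a1, a sodium-magnesium exchanger, had 43.0, 45.4, 43.2 and 41.4 CPM with corticosterone, against 43.5, 47.0, 42.1 and 47.1 CPM in medium, with overlapping groups (adjusted p = 0.347). Slc41a2 had 2.16 ± 0.177 CPM with corticosterone and 1.78 ± 0.218 CPM in medium (adjusted p = 0.167), and Slc41a3 had an adjusted p of 0.798. Of 11 listed magnesium channels and partners 8 were tested, and 2 rose and 2 fell. Cnnm4, a magnesium transporter, fell to 12.5 ± 0.513 CPM with corticosterone, against 16.6 ± 0.822 CPM in medium (0.752-fold, adjusted p = 5.10e-05). Tusc3, a subunit of the glycosylation machinery that is linked to magnesium uptake, rose to 50.7 ± 2.64 CPM with corticosterone, against 44.4 ± 1.76 CPM in medium (1.14-fold, adjusted p = 0.00298). Nipa2, a magnesium transporter, rose to 42.3 ± 1.58 CPM with corticosterone, against 37.9 ± 1.21 CPM in medium (1.11-fold, adjusted p = 0.00591).

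Levels of different carrier genes were set side by side per length, without the scaffold and adaptor genes, as transcripts per 1e+06 built with 1 effective length per transcript. Among the carriers Slc20a1 stood highest with corticosterone, at a level of 226 in replicate 3 and 245 in replicate 4, above Slc39a7 at 143 and 155 in the same libraries. In medium Slc39a7 was the highest carrier at 159 ± 3.88, followed by Slc39a1 at 99.2 ± 1.79, Slc20a1 at 97.1 ± 2.83 and Slc30a9 at 84.5 ± 4.15 (SD, n = 4). In the medium libraries Slc39a7 stood above all the other carriers, Slc39a1 and Slc20a1 overlapped, and Slc30a9 lay below both. Next in medium came Slc12a4, Slc39a13, Slc12a2, Slc12a7 and Slc4a2 at 57.96 to 51.3, whose order is within their spread. Levels of corticosterone replicates 1 and 2 are left out, since transcripts were assigned differently. Of the Slc20a1 counts, transcript Slc20a1-201 took 4.398% in corticosterone replicate 1 and 79.3% to 83.4% in the other 7 libraries, replicate 2 included. For Slc30a9 both replicates stood apart. A protein-coding transcript took 6.76% and 8.18% of its counts in corticosterone replicates 1 and 2, against 36.3% to 37.3% in the other libraries. The largest share of Slc30a9 counts was on a transcript annotated as a target of nonsense-mediated decay. That share was 68.1% and 70.1% in corticosterone replicates 1 and 2, and 48.6% to 51.5% in the other libraries. The level of Slc30a9 is thus one of the summed RNA.

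**Figure D4:**
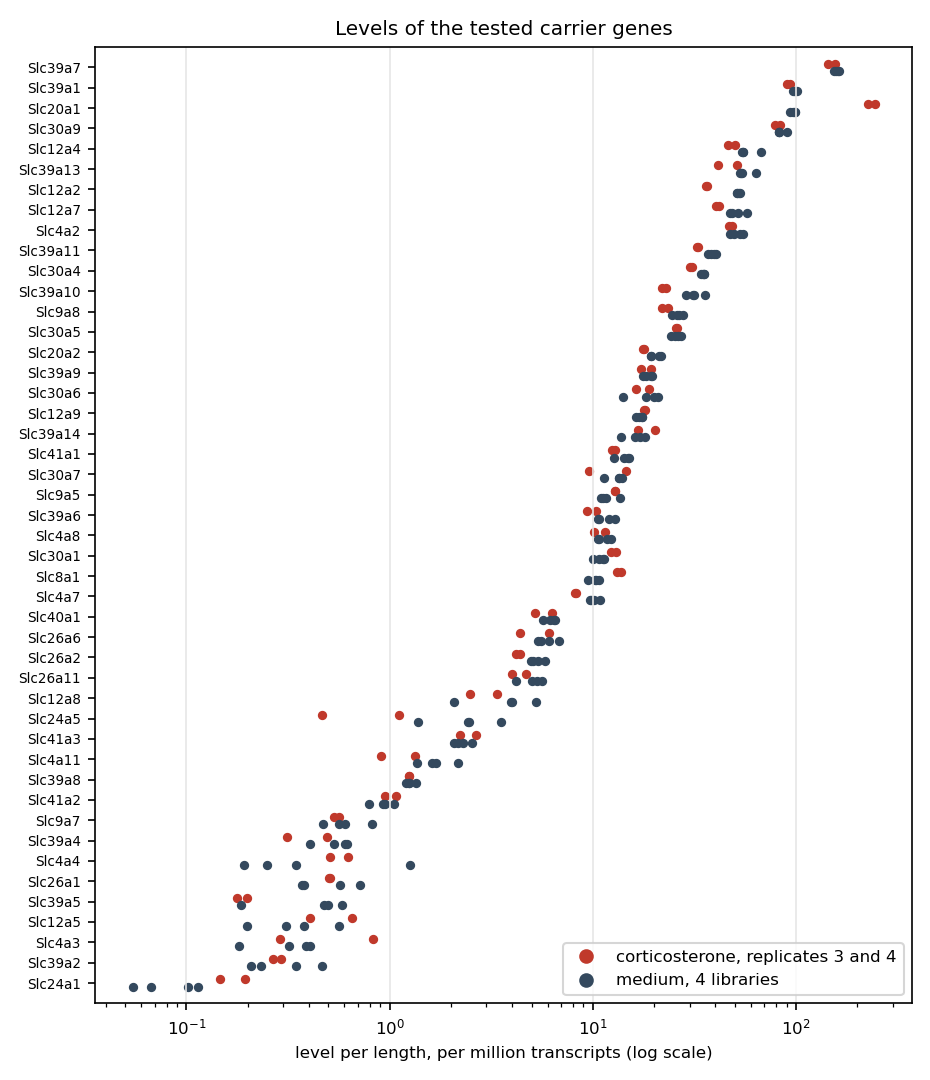
Level per length in transcripts per 1e+06 (x axis, log scale) of 46 of the 49 tested carrier genes (y axis), ordered by their mean in medium; red points are corticosterone replicates 3 and 4, dark points the 4 medium libraries. Slc20a1 reaches 226 and 245 with corticosterone, to the right of every other carrier drawn, and the genes below about 1 scatter widely.

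Over the carriers of a family, the summed level of Slc20 was 244 and 263 in corticosterone replicates 3 and 4, against 117 ± 2.43 in medium. That of Slc12 was 169.7 and 166 in those corticosterone libraries, against 201 ± 12.3 in medium. The ZIP genes summed to the highest level in both groups, 402 and 409 in corticosterone replicates 3 and 4, against 445 ± 6.60 in medium. The ZnT genes summed to 186 and 173 in these corticosterone libraries, against 187 ± 5.63 in medium. Slc4 and Slc9 summed to 75.4 ± 5.02 and 65.9 ± 4.39 in medium, and each of the other families to 17.5 or less.

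The 32 genes that were not tested were read rarely, apart from Slc39a3. Of these, 9 had 0 counts in all 8 libraries: Slc4a10, Slc9a4, Slc26a4, Slc26a7, Slc30a2, Slc30a3, Slc30a10, Slc34a3 and Slc39a12. A count of 0 allows up to 0.0124 CPM over the 8 libraries, taken as 3 counts. The other 23 had counts, of which Slc8a3 came second after Slc39a3, with 24 counts over the corticosterone libraries and 30 over the medium libraries. Slc26a10 had 14, 3, 9 and 5 counts in the corticosterone libraries, against 3, 2, 1 and 5 in the medium libraries, and the groups overlap. With all its transcripts summed it held 30.6 counts over the corticosterone libraries and 15.7 over the medium libraries, and it shares 17.0% of its 31-mers with B4galnt1. At this depth these carriers were not detectable or barely so, which does not show that they are absent.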

How the data were processed

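Poly(A)-selected directional RNA libraries of 8 bEnd3 samples were analysed. Per the submitters' processing notes, kallisto 0.46.1 and bcl2fastq were used with the builds mm10 and GRCm38. How transcripts were indexed and summed to genes is not given in the sources used here. As deposited, the gene table holds estimated counts, and kallisto tables of each library hold the estimated count and effective length of every transcript, per the file headers.

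IDs were matched to GENCODE M21 symbols (99.8% of table IDs). Estimated counts were rounded and tested with edgeR 4.0.16 (filterByExpr, TMM, robust quasi-likelihood F test, group as the single term, Benjamini-Hochberg over 13272 genes, threshold 0.05). SE is the log2 fold change divided by the square root of F, and CPM use TMM-scaled libraries. DESeq2 1.42.0, other filters and scalings, a replicate block and left-out libraries were alternatives. The method was tested on simulated data, with 50 genes changed at each size. It called 64% of changes of 1.25-fold, 80% of 1.5-fold and 100% of 2-fold and of 4-fold, with 8 false calls among 13171 genes. The simulated libraries shared the same relative spread, without the wider differences of corticosterone replicates 1 and 2. Levels per length divide transcript counts by the median effective length of the 6 libraries that share a scale. Gene sums in the table equal sums of transcripts of the annotated version within 0.5 counts for all 84 genes, and 567 transcripts of another version, with 0.512% to 0.541% of a library's counts, are outside them. Promoter sequences are from RefSeq on GRCm38.p6. The interval of a log2 fold change comes from the SE of the fit, and so from the spread between libraries. The limit for a count of 0 covers counting error only, since reads were counted without molecular identifiers and are not independent molecules.

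The genes, lists and tests were chosen with earlier results of these data known. Values in every library were given for genes called without overlap, at a size of 0.5 or more on the log2 scale and 1 CPM or more, for the highest tested gene per length of each family and for genes chosen by name. Some of these and other tested genes are not reported here singly, in text or figures, but every count includes them. Outside lists show Sgk1 and the 3 genes with the smallest p. Slc9a3r1, Slc39a3, Slc39a13, Slc12a7 and Slc26a2 were given in full after their values were seen.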

Additional observations from a re-analysis of the deposited data

Results flagged for a closer look

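In 6 of the 104 groups of 4 libraries searched over the tested genes, 1 library lay far from the other 3, where chance gives about 1 in 20. Slc8a1 had 56.2 CPM in corticosterone replicate 3, against 51.3 to 52.1 CPM in the other corticosterone libraries. Slc12a2 had 250 CPM in medium replicate 3, against 236 to 237 CPM in the other medium libraries. Both genes kept their call without that library. Slc39a4 had 0.910 CPM in corticosterone replicate 3, against 0.538 to 0.578 CPM in the others, and without that library its log2 fold change was -0.79 (adjusted p = 0.0361). Slc26a1 had 1.42 CPM in medium replicate 1, against 0.920 to 0.975 CPM in the other medium libraries. Slc30a5 had 57.0 CPM in medium replicate 4, against 52.8 to 53.4 CPM in the others. Slc39a9 was lowest in medium replicate 3 with 60.2 CPM, against 64.8 to 65.6 CPM in the others.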

How the results depend on the processing

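Over 16 alternatives, of which the sums over all transcript versions were chosen after seeing the data, the number of genes changed was 4485 to 5556 (5327 as reported), that of the described genes that rose 8 to 11 (9) and that fell 13 to 15 (13). Of the 22 calls, 20 were kept in every alternative that tested the gene. A stricter filter left 45 of the described genes tested, without Slc24a5, which counts among the 20. Over the alternatives, 7 genes not called became called in at least 1 (Slc39a11, Slc39a4, Slc39a5, Slc4a7, Slc4a8, Slc9a5 and Slc9a8). Slc12a5 lost its call without corticosterone replicates 1 and 2 together (adjusted p = 0.112), with a term for them (0.0958), without a filter (0.0520) and with the replicate block (0.0549). Slc12a7 lost its call without corticosterone replicates 1 and 2 together (adjusted p = 0.0807) and with a term for them (0.0696). The cause was not tested. Of 825 values of single genes under alternatives, 779 kept direction and side of the threshold, 17 passed it newly, 6 lost it and 23 changed sign, the last all in genes not called. With library size scaling the log2 fold changes of Slc30a5, Slc30a6 and Slc39a1 were -0.0055, -0.00297 and -0.0194. Without corticosterone replicates 1 and 2 together, those of Slc26a1, Slc39a1 and Slc39a2 were 0.124, -0.0651 and -0.033, and with a term for them 0.132, -0.0688 and -0.0479. Leaving out 1 library at a time gave log2 fold changes of -0.118 to 0.146 for Slc26a1, -0.0207 to 0.123 for Slc26a6, -0.0279 to 0.0698 for Slc30a6, -0.0527 to 0.000275 for Slc30a9, -0.0202 to 0.0438 for Slc39a1, -0.121 to 0.00483 for Slc40a1 and -0.0324 to 0.0997 for Slc41a3.

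No pairing by replicate number was seen: deviations of same-numbered libraries correlated at -0.0374, 0.0302, -0.0527 and -0.0507. Since corticosterone replicates 1 and 2 differ widely from each other and from the rest of their group, these values cannot exclude a pairing. With the replicate block 4913 genes were changed, and 8 of the described genes rose and 14 fell. The difference of mean library totals ranged from -3.71 to 5.11 M (1e+06 counts) with 1 library left out. The summed level per length of the carriers averaged 1125 over all 4 corticosterone libraries, replicates 1 and 2 included, and 1267 with the deposited effective length of each library. Depth limits the genes under 1 CPM.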
